A study of Mus musculus with 113 samples.

Results

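The 10 genes Bmp4, Bmp7, Bmpr1a, Bmpr2, Smad1, Smad5, Id1, Id2, Id3 and Id4 were followed through the neural differentiation of mouse embryonic stem cells (mESCs). They were taken by gene symbol from the processed gene tables, and the rule used no measured value. They are 10 of the 23739 genes listed in at least 1 of the 4 tables. All 10 were listed for the SFEB populations, the adherent monoculture and the E14 cells, and 9 for the single cells, whose table does not list Bmpr2.

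Bone morphogenetic proteins (BMPs) are secreted ligands that bind a complex of type I and type II serine/threonine kinase receptors. The type I receptor phosphorylates Smad1 and Smad5, which enter the nucleus with Smad4 and activate target genes, among which the Id genes are the best known. Id proteins carry a helix-loop-helix domain without a DNA-binding region, so they pair with E proteins and keep these from working with proneural factors. In mESC culture, BMP and Id proteins are known to help hold the undifferentiated state, and BMP ligands oppose the choice of a neural fate.

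R1 mESCs were differentiated in 2 ways, and RNA-seq was run at a series of hours after the start. In SFEB, a culture in suspension without serum, cells grew as aggregates that resemble embryoid bodies and were dissociated and replated on day 6. A first series held 14 populations from 0 to 142 h, and a parallel series held 8 populations from 0 to 216 h, with 8 single cells at each of the same 8 times (64 cells). In the adherent monoculture, cells grew in N2B27 medium on gelatin and were replated on day 6, with 15 samples from 0 to 216 h. E14 mESCs, a separate line, were WT or Fyn KO, a CRISPR deletion of the Src-family kinase gene Fyn screened as a clone, each at day 0 and day 4 of differentiation with 3 replicates, by a protocol that the labels do not state. Every time point of the R1 courses was a single library or a single set of 8 cells, so only E14 had replicates. The R1 cells had grown with feeder cells and were passaged once without them. The values are FPKM (fragments per kilobase of transcript, scaled to the number of mapped fragments) or, for the cells, log10(RPKM + 1), where RPKM counts reads in the same way. The paper states a minimum number of reads per library for the single-cell experiment. The depth of each library is not known here, since the tables hold no counts.

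The labelled course of differentiation was present in the marker genes. The summed FPKM of the neural progenitor markers rose from 32 to 813 in the first SFEB series, from 22.6 to 995 in the parallel series and from 27.4 to 530 in the adherent monoculture. Some libraries also held markers of other cells. The fibroblast sum was 981, 1033 and 442 FPKM at 0 h in the 3 courses and 13.8 by 68 h of the first series. The mesoderm sum was 20.6 FPKM at 103 h of the first series, between 6.61 at 92 h and 7.16 at 126 h, and it was 9.11 at 142 h. The parallel series held more of both lineages, with a mesoderm sum of 7.22 FPKM at 60 h, 25.1 at 84 h, 35.8 at 106 h, 21.9 at 144 h and 7.97 at 216 h and an endoderm sum that went from 0.432 at 60 h to 18.9 at 216 h. In the adherent course the mesoderm sum was 1.06 at 140.5 h, 23.6 at 144 h and 11.9 at 216 h. The endoderm sum was 9.95, 43.7 and 28.6 in the same samples.

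The Id genes are short. In the NCBIM37 assembly with GENCODE M1 annotation, Id1 lies on chromosome 2 (152561987 to 152563146, plus strand), Id2 on chromosome 12 (25778666 to 25780957, minus strand), Id3 on chromosome 4 (135699412 to 135701670, plus strand) and Id4 on chromosome 13 (48356796 to 48359405, plus strand). All 10 genes are annotated as protein-coding. Of the 10, 8 were in the RefSeq promoter table, which does not list Id1 and Bmp7. The promoters of Id2, Id3 and Id4, the Id genes in that table, are printed because all 3 were higher late in the time courses than at mid-course. Each is the 250 bases before the RefSeq start in GRCm38, 5′ to 3′ in the direction of transcription, and capitals mark GGCGCC or GGAGCC on either strand, sequences to which Smad1 and Smad5 are known to bind.

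Id2, chr12:25096093-25096342, minus strand: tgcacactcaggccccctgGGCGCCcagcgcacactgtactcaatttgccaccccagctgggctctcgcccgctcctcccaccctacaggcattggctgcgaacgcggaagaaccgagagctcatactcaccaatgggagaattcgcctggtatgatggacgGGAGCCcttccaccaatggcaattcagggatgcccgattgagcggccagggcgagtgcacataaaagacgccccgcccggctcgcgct

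Id3, chr4:136143572-136143821, plus strand: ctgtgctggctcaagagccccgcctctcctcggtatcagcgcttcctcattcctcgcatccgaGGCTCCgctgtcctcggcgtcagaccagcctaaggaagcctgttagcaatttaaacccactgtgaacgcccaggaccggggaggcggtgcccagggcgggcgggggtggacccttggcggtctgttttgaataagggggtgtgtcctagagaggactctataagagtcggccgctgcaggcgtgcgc

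Id4, chr13:48260866-48261115, plus strand: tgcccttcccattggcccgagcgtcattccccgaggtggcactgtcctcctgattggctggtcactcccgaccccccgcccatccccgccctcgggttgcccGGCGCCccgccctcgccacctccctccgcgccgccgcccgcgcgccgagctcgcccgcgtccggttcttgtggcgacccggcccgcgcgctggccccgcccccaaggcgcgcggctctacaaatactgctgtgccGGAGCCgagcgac

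The first of these, GGCGCC, occurred once in the Id2 window, starting 231 bases before the RefSeq start, and once in Id4, 148 bases before it. The second, GGAGCC, occurred once in each of the 3, at 88 bases in Id2, 187 in Id3 (on the other strand) and 13 in Id4. Among 32851 promoter windows of the same length, 9.59% held the first and 26.0% held the second on either strand. The E-box bound by helix-loop-helix proteins, CANNTG, was in 66.2% of windows and, among these 3 genes, once in Id2. These matches describe the letters in the windows and were not tested for binding.

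Id1 and Id3 traced a valley across SFEB differentiation. Both were high in mESCs, reached their lowest values between 38 and 60 h, and were higher again by the end, whereas Id2 and Id4 had their highest values late. In the first series, Id1 had a lowest value of 5.31 FPKM at 54.5 h, a median of 18.1 and a highest value of 53 at 2 h. Id3 ran from 4.20 FPKM at 42.5 h to 105.5 at 2 h, with a median of 26.9. The last value of Id1, 17.7 FPKM at 142 h, stayed under its 0 h value of 42.2 in the first series, but in the parallel series it went from 22.5 at 0 h to 29.6 at 216 h. Id3 ended above its start in both, with 45.3 and 83.5 FPKM in the first series and 41 and 89.1 in the parallel series.

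The first hours held a brief peak of Id3. It read 45.3 FPKM at 0 h, 100.3 at 1 h, 105.5 at 2 h and 30.0 at 8 h. Id4 read 3.13, 4.35, 7.78 and 2.43 FPKM at the same times, and Id2 read 4.45, 7.33, 9.07 and 3.15. All 3 thus had their highest early value at 2 h and were below the 0 h value at 8 h. On FPKM + 1, Id3 and Id4 were at least 2-fold higher at 2 h than at 0 h (2 of 10, where 2.23% of the genes tested were), and Bmpr2 was lower by at least that much (1.85% of genes). At 1 h, Id3 was already past 2-fold, alone among the 10 (0.259% of genes). Id1 differed little over the same hours, at 42.2 FPKM and 53. Each of these times is 1 library. The FPKM of the 2 h library summed to 572961, beside 436982 to 495063 in the other 13 of the first series, and it also held the lowest Bmpr1a, Bmpr2 and Smad5 of that series. The part of this in the 2 h values was not tested. The parallel series has no sample between 0 and 9 h. The adherent sample at 2.5 h did not show the peak: from 0 to 2.5 h Id3 went from 18.5 to 22.1 FPKM, Id2 from 1.77 to 1.08 and Id4 from 0.673 to 0.801, and 0 of the 10 genes were 2-fold higher (2.51% of genes).

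From 2 h to 54.5 h, Id1 fell by 9.98-fold and Id3 by 24-fold in the first series. The fibroblast sum of the same libraries fell over these hours too, from 981 FPKM at 0 h to 710 at 2 h and 18.8 at 54.5 h, and its part in the values was not tested. Of the 10 genes, 5 were lower by at least 2-fold on FPKM + 1 over this interval (9.91% of all genes were) and 1 was higher, Bmpr1a (7.5%). This interval and those that follow were chosen after the values of these genes were seen, at their high or low hours. All genes were counted at the same hours, so the shares of all genes are not a like comparison. The parallel series had the same low point, with Id1 at 22.5 FPKM at 0 h and 5.76 at 60 h and Id3 at 41 FPKM at 0 h and 8.91 at 38 h. From 54.5 h to 142 h, 7 of 10 were higher by at least 2-fold (16.2% of genes) and 0 were lower (10.2%), with ratios of 15.7 for Id3, 17.2 for Id4, 4.60 for Id2 and 2.96 for Id1 on the same scale. From 60 to 216 h of the parallel series the ratios were 8.42 for Id3, 50.1 for Id4 (from 0.370 FPKM) and 4.53 for Id1 on FPKM + 1, and 8 of 10 were higher by at least 2-fold (20.8% of genes).

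Id4, the family member most used as a marker of radial glia and other neural stem cells, came on last. In the first series it stayed between 1.50 and 7.78 FPKM up to 103 h and then read 26.7 at 126 h and 60.2 at 142 h. The parallel series gave 2.17 FPKM at 106 h, 24.2 at 144 h and 67.6 at 216 h. Id2 climbed earlier and more evenly, from 5.38 FPKM at 34 h to 14.8 at 68 h and 46.5 at 142 h in the first series and from 3.95 at 9 h to 32.3 at 144 h in the parallel series. In both series, then, Id2 was several-fold above its 0 h value before Id4 left its low range.

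Id3 did not return at the same hour in the 2 SFEB series. In the first series it read 13.3 FPKM at 92 h and 88.9 at 103 h, a ratio of 6.69, and then 80.5 at 126 h and 83.5 at 142 h. In the parallel series it read 27.3 FPKM at 84 h, 38.8 at 106 h and 74.5 at 144 h, with the mesoderm sums given above. The interval from 92 to 103 h was also chosen after its values were seen. Over it, 2 of the 10 genes were at least 2-fold higher, Id3 and Bmp7 (1.15% of genes), with Bmp7 from 2.67 to 8.16 FPKM. The 103 h library was the one with the mesoderm sum of 20.6 FPKM, and the part of mesoderm cells in its values was not tested. At 126 and 142 h, where that sum was 7.16 and 9.11, Id3 was at 80.5 and 83.5 FPKM and Bmp7 at 5.43 and 4.59. In population samples a change in the share of cells of a type cannot be told apart from a change per cell.

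**Figure D1:**
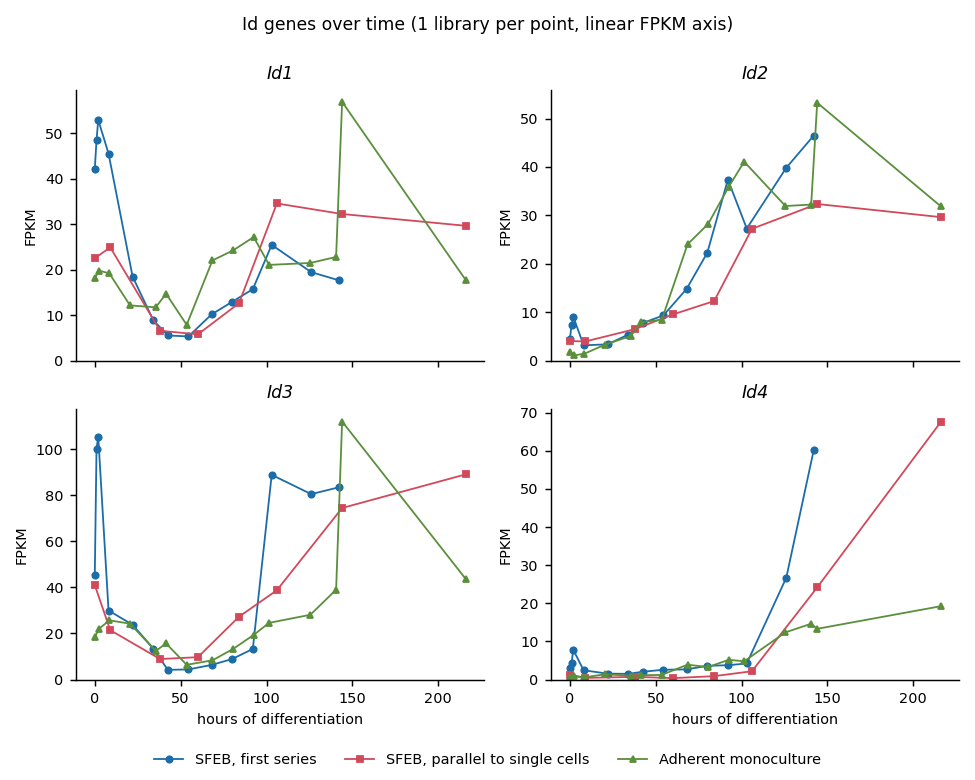
FPKM of Id1, Id2, Id3 and Id4 (vertical axes, linear, from 0) against hours of differentiation in the first SFEB series, the parallel SFEB series and the adherent monoculture; each point is 1 library, with no error bar. Id1 and Id3 were lowest between 38 and 60 h in all 3 courses and higher afterwards, Id2 climbed from about 34 h, and Id4 in SFEB stayed below 8 FPKM up to 106 h.

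In the adherent monoculture the valley was shallower for Id1. It ran from 18.1 FPKM at 0 h to 7.86 at 53.5 h and 22.0 at 68.5 h, and then lay between 21.0 and 27.2 up to 140.5 h. Id3 fell from 25.7 FPKM at 8.5 h to 6.40 at 53.5 h and reached 39.0 at 140.5 h. The fibroblast sum was 442 FPKM at 0 h, 324 at 8.5 h and 71.2 at 53.5 h, and its part in the values was not tested. Id2 stayed at or below 3.30 FPKM to 20.5 h and was 24 at 68.5 h and 41.1 at 101.5 h. Id4 read 0.673 FPKM at 0 h, 3.89 at 68.5 h, 4.80 at 101.5 h, 12.4 at 125.5 h and 19.2 at 216 h. Its values at 68.5 and 101.5 h lay within the low range given above for the first SFEB series. It ended lower than in SFEB, in tables that were normalised separately.

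The adherent sample at 144 h stood apart from its neighbours for 3 of the 10 genes. Of the genes tested, 3.85% were at least 2-fold higher there than at 140.5 h, an interval also chosen after the values were seen. Id3 was at 39.0, 112.0 and 43.6 FPKM at 140.5, 144 and 216 h. Bmp7 was at 5.11, 13.1 and 6.01, and Id1 at 22.8, 56.9 and 17.7. This library carried the mesoderm sum of 23.6 FPKM and the endoderm sum of 43.7. At 216 h these sums were 11.9 and 28.6 FPKM, beside 1.06 and 9.95 at 140.5 h. The part of mesoderm and endoderm cells in the 3 values at 144 h was not tested.

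The 2 ligands had different courses. Bmp4, a ligand known to maintain mESCs together with LIF, had an early peak and then fell. Bmp7 was lowest in mid-course and rose late. In the first SFEB series Bmp4 read 7.61 FPKM at 0 h, 4.61 at 2 h, 13.8 at 8 h and 6.28 at 22 h, and from 68 h it stayed between 0.552 and 0.822. The 8 h peak recurred in the other courses at the nearest sample, with 6.48 FPKM at 0 h and 9.06 at 9 h in the parallel series and 4.52 at 0 h and 12.5 at 8.5 h in the adherent monoculture, a ratio of 2.77 in the latter. Among the 10 genes, Bmp4 was the only one at least 2-fold higher at 8.5 h of the adherent course than at 0 h (2.55% of genes). In that course Bmp4 stayed high for longer, at 11.2 FPKM at 20.5 h and 3.18 at 35.5 h. Bmp4 ended at 0.562 FPKM in the first series, 1.96 in the parallel series and 0.701 in the adherent monoculture. Bmp7 was lowest at 1.21 FPKM at 42.5 h of the first series, 1.10 at 38 h of the parallel series and 1.04 at 53.5 h of the adherent course, and its last values were 4.59, 9.61 and 6.01. Its 0 h values were 6.83, 3.37 and 2.15, so that it ended under its start in the first series and above it in the other courses.

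Bmpr1a, Smad1 and Smad5 rose slowly, and Bmpr2 moved both ways. Bmpr1a, the type I receptor, had a lowest value of 10.5 FPKM at 2 h, a median of 23.4 and a highest value of 44.8 at 142 h in the first series, and it went from 16.3 to 33.2 in the parallel series. Smad1 went from 7.40 to 20.04 FPKM in the first series, from 7.20 to 25.1 in the parallel series and from 7.95 to 19.9 in the adherent monoculture. Smad5 went from 11.6 to 28.0, from 9.90 to 23.8 and from 7.88 to 22.4 FPKM in the same courses. Bmpr2, the type II receptor, read 9.18 FPKM at 0 h, 2.33 at 2 h and 8.84 at 142 h of the first series. The 2 h values of Bmpr1a and Bmpr2 come from the library with the high FPKM sum given above. From 0 to 2.5 h of the adherent course Bmpr2 went from 1.96 to 3.64 FPKM. In the parallel series it went from 6.00 FPKM at 0 h to 12.95 at 216 h. In the adherent course Bmpr1a went from 9.91 FPKM at 0 h to 27.5 at 144 h and 14.4 at 216 h, and Bmpr2 ran from 0.701 FPKM at 41.5 h to 5.32 at 80.5 h. In all 3 courses Bmpr1a, Smad1 and Smad5 therefore had their highest values at 126 h or later, after Bmp4 had fallen.

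**Figure D2:**
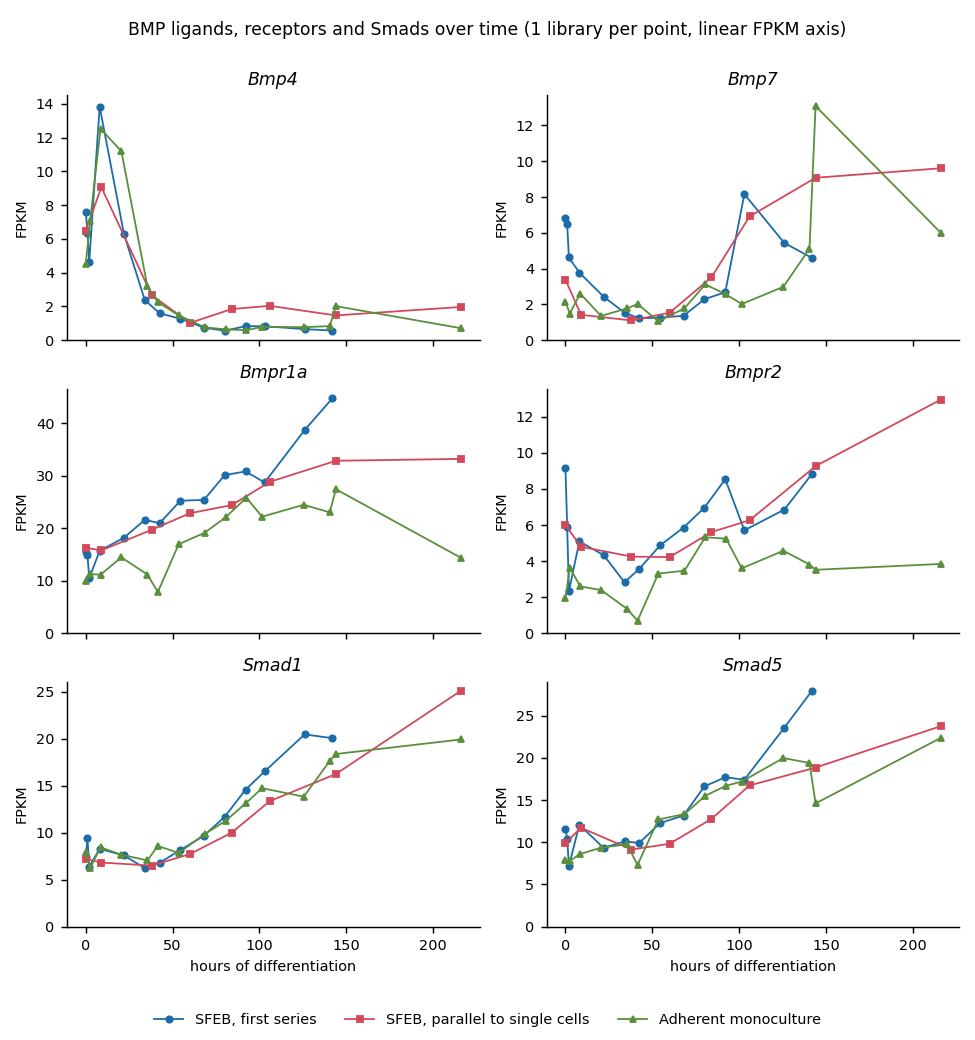
FPKM of the 2 ligands, the 2 receptors and the 2 Smads (vertical axes, linear, from 0) against hours of differentiation in the 3 courses; each point is 1 library, with no error bar. Bmp4 peaked at 8 to 9 h and stayed at or below 2.03 FPKM from 84 h on, whereas Smad1 and Smad5 climbed to between 19.9 and 28.0 FPKM at the last sample of each course.

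A linear trend over time was fitted with limma on log2(FPKM + 1) across all genes, with the 22 SFEB populations in 1 fit. Of the 10 genes, 8 had a trend at an adjusted p below 0.05 (7 upward and 1 downward), beside 62.2% of the 13115 genes tested (35.1% upward, 27.1% downward), so that the share is not far above that of all genes. Id4 rose by 2.25 on the log2 scale per 100 h (SE 0.38, limma adjusted p = 2.2e-05) and Id2 by 1.85 (SE 0.20, adjusted p = 9.9e-08). Bmp4 fell by 1.27 (SE 0.26, adjusted p = 0.00020), a fall that was not called in the parallel series alone (-0.69, limma adjusted p = 0.0855). Smad1 rose by 0.94, Bmpr1a by 0.79, Smad5 by 0.76, Bmp7 by 0.62 and Bmpr2 by 0.55. The Bmp7 trend (SE 0.27, limma adjusted p = 0.0493) was near the threshold and was not called without the 103 h library (0.55, adjusted p = 0.0808) or in the first series alone (0.06, adjusted p = 0.908). In the first series alone Bmpr2 was not called either (0.50, limma adjusted p = 0.0883), and 6 of the 10 were.

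For the valley-shaped genes a straight line missed most of the movement. The slopes of Id1 (-0.07, SE 0.37, limma adjusted p = 0.884) and Id3 (0.66, SE 0.53, adjusted p = 0.290) were not called. With a natural cubic spline of 3 degrees of freedom in place of the line, both were called (limma adjusted p = 8.5e-08 and 2.1e-07), as were all 10 genes, beside 87.6% of all genes. These p-values measure the scatter of single libraries around a curve, not the spread between replicate cultures.

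In the adherent monoculture 8 of 10 had a linear trend (7 upward, 1 downward), beside 58.6% of 12729 genes (35.2% upward, 23.4% downward). Id2 rose by 2.29 per 100 h on the log2 scale (SE 0.35, limma adjusted p = 4.2e-05) and Id4 by 2.02 (SE 0.16, adjusted p = 7.9e-08). Bmp4 fell by 1.25 (SE 0.30, limma adjusted p = 0.0021), close to its slope in SFEB, though the difference between the cultures was not tested. Bmp7 rose by 0.84 (SE 0.20, adjusted p = 0.0022). Bmpr2 (0.41, SE 0.19, limma adjusted p = 0.0728) and Id1 (0.42, SE 0.22, adjusted p = 0.120) were not called. With the spline 9 of 10 were, beside 69.6% of all genes, the exception being Bmpr2 (limma adjusted p = 0.0558). Id1 was among the 9, though from end to end its curve then ran slightly downward. Its line was called upward once 216 h was left out. The Id3 trend of 0.83 (SE 0.32, limma adjusted p = 0.0376) was no longer called without the 144 h library (0.56, adjusted p = 0.0929).

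**Figure D3:**
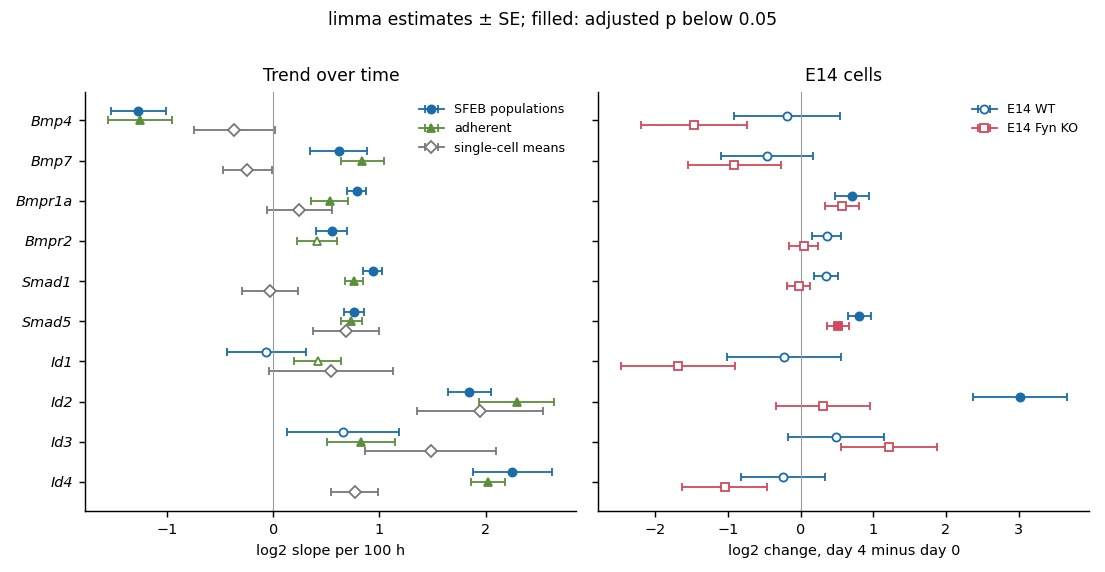
limma estimates with their SE (bars) for the 10 genes: left, the log2 slope per 100 h in the SFEB populations, the adherent monoculture and the single-cell time point means; right, the log2 change from day 0 to day 4 in E14 WT and Fyn KO cells. Filled symbols passed an adjusted p of 0.05, and Id2 and Id4 had the steepest upward slopes in both population courses while Bmp4 sloped downward.

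Pairs of the 10 genes moved alike to different degrees. Over the 22 SFEB populations, Pearson's r on log2(FPKM + 1) was 0.948 for Smad1 and Smad5, 0.885 for Bmp7 and Id3, 0.827 for Id1 and Id3 and -0.805 for Bmp4 and Id2. Over the 15 adherent samples the same pairs gave 0.867, 0.849, 0.697 and -0.876. The points share a time axis, so any genes that change with time correlate, and these values are descriptions. Among 12553 genes ranked, the closest to Id1 were Cst3 (r = 0.948), Rcan1 (0.934) and Col4a1 (0.925). Those closest to Id2 were Gstm5 (0.975), Prkra (0.969) and Slc35f1 (0.966). Those closest to Id3 were Kdelr1 (0.924), Camk1 (0.921) and Ccnd2 (0.912), and those closest to Id4 were Tagln3 (0.977), Dusp8 (0.966) and Apc2 (0.965). In the adherent samples, which the ranking did not use, r was 0.981 for Id2 with Prkra and 0.608 for Id1 with Rcan1, the extremes of the 12.

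In the 64 single cells, Id3 was above 0.5 RPKM in 56 cells (87.5%), Id1 in 47 and Id2 in 30. The median gene in this table was above 0.5 RPKM in 24 cells (37.5%). The study states that it discarded genes above 0.5 RPKM in too few cells, so this median covers genes already chosen for detection. Receptors, Smads and ligands were caught less often, with Bmpr1a in 19 cells, Smad5 in 18, Bmp4 in 16, Smad1 in 13 and Bmp7 in 7, and Id4 was above it in 6 cells. The number of genes above 0 in a cell had a median that ran from 6145 at 144 h to 8972 at 0 h, and its part in these counts was not tested.

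The valley of Id3 was also present cell by cell. The number of cells of 8 above 0.5 RPKM was 8, 8, 7, 3, 7, 8, 7 and 8 at 0, 9, 38, 60, 84, 106, 144 and 216 h. The 3 cells at 60 h are 37.5% (exact 95% binomial interval 8.52 to 75.5%, counting error only). The mean log10(RPKM + 1) of Id3 was 1.601 at 0 h, 0.330 at 60 h and 2.27 at 216 h, with cells at 216 h spread from 0.821 to 3.94. Id1 had its lowest means at 60 h (0.378) and 84 h (0.409) and its highest at 144 h (1.74), when single cells ran from 0 to 3.24.

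Id2 was near 0 in most cells at 0 h and was above 0.5 RPKM in every cell at 144 h. The count was 1 cell at 0 h, 0 of 8 at 9 h (which at 3 counts of 8 allows a share of up to 37.5%, counting error only), 6 at 106 h, 8 at 144 h and 4 at 216 h, with means of 0.059, 0.014, 1.01, 2.06 and 0.693. Bmp4 was above it in 0 of 8 cells at 0 h and 6 of 8 at 9 h, and the highest cell at 9 h read 2.25. Its median over the cells was 0.611 at 9 h and at most 0.0465 at any other time. The 8 cells sampled at 9 h thus held more Bmp4 than the 8 sampled at 0 h. The exact binomial intervals of these shares overlap, at 0 to 36.9% for 0 h and 34.9 to 96.8% for 9 h (counting error only). The parallel populations read 6.48 FPKM at 0 h and 9.06 at 9 h. Bmp4 was therefore present in the 0 h population while 7 of the 8 cells of 0 h read 0, and the cause was not tested. Id4 was above 0.5 RPKM in 4 of 8 cells at 216 h and in 2 cells at all earlier times together.

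Cells of 1 time point are not replicates, so trends were fitted on the 8 time point means. Of the 9 genes in this table, 0 were called by limma at an adjusted p below 0.05, beside 2.73% of 11449 genes, and 4 had an unadjusted p below 0.05, beside 17.2% of genes. The slopes were 1.95 per 100 h for Id2 (SE 0.59, limma adjusted p = 0.0663), 1.48 for Id3 (SE 0.62, adjusted p = 0.201), 0.77 for Id4 (SE 0.22, adjusted p = 0.0555) and 0.69 for Smad5 (SE 0.31, adjusted p = 0.246). Id2 and Id4 were called once cell 16 of 216 h was left out (2.07 and 0.88, limma adjusted p = 0.0412 and 0.0365), when 4.26% of all genes were. The neural progenitor markers of that cell summed to 1.52 RPKM, beside 113 to 1056 in the other cells of 216 h. The paper describes it as an outlier left at the original stage, and the values at 216 h above include it. Without 216 h, 0 of 11449 genes were called by limma, and 1693 had an unadjusted p below 0.05. Across the 64 cells Id1 and Id3 had r = 0.469, and r = 0.411 after each gene was centred within its time point, and the other 9 pairs among the Id genes and Bmp4 were at 0.303 or below, or 0.206 or below after centring.

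**Figure D4:**
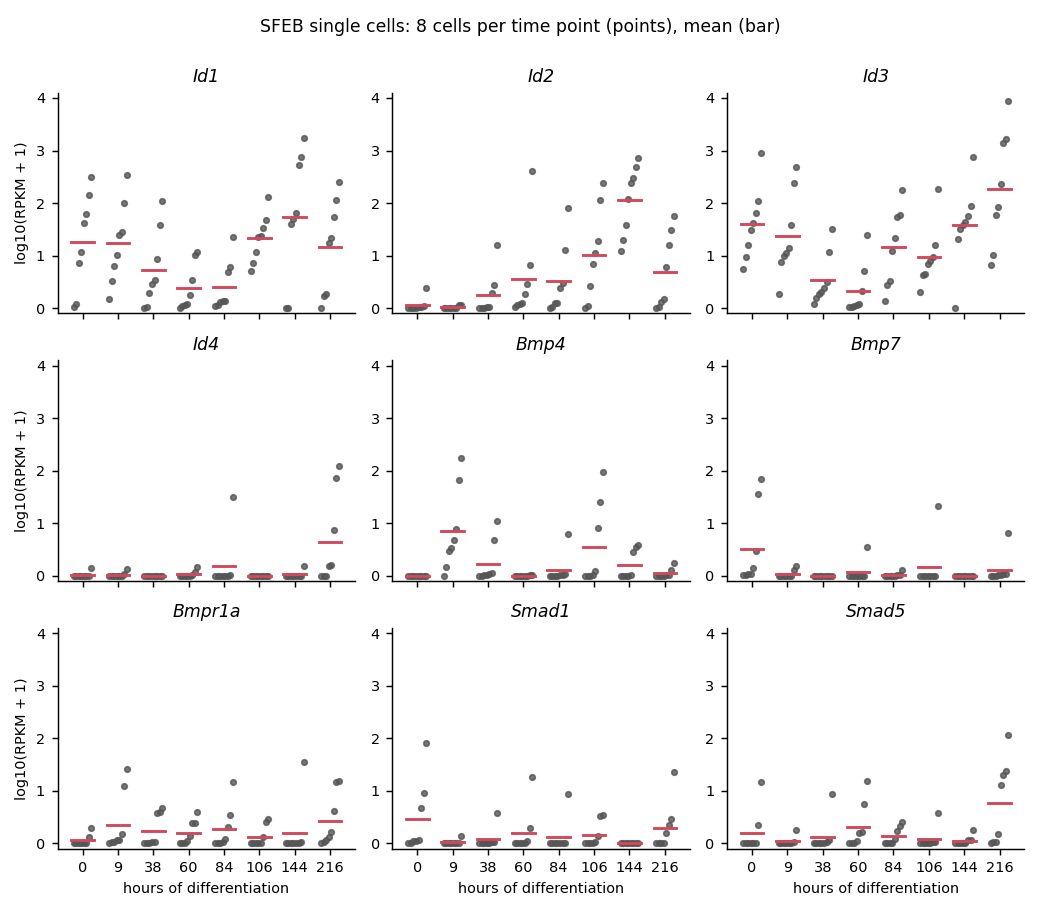
log10(RPKM + 1) of 9 of the genes in single SFEB cells (vertical axes) at 8 times (horizontal axes, hours, not to scale), with 8 cells as points and their mean as a bar at each time. Id3 was above 0.5 RPKM in 3 of 8 cells at 60 h and in 8 of 8 at 0 and 216 h, Id2 in 8 of 8 at 144 h, and Bmp4 in 6 of 8 at 9 h.

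In E14 cells the targeted gene was measured first. Fyn read 3.21, 2.74 and 4.00 FPKM in WT at day 0 and 9.44, 4.54 and 6.76 at day 4, and 0.598, 0.598 and 1.10 in Fyn KO at day 0 and 1.19, 1.13 and 1.58 at day 4. The genotypes did not overlap on either day. The difference of KO from WT was -1.29 on the log2 scale at day 0 (SE 0.24, limma adjusted p = 0.0601) and -1.74 at day 4 (SE 0.24, adjusted p = 0.0193). Summed naive pluripotency markers were 1020 to 1476 FPKM at day 0 and 151 to 518 at day 4, so the libraries were ordered by day as labelled. Neural progenitor markers summed to 182, 23.3 and 50.6 FPKM in WT day 4 replicates 1, 2 and 3 and to 17.6, 10.1 and 31.2 in Fyn KO.

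In WT, Id2 rose from day 0 to day 4, along with Smad5 and Bmpr1a. Id2 read 1.86, 2.97 and 1.56 FPKM at day 0 (mean 2.13 ± 0.744, SD, n = 3) and 82.1, 10.2 and 15.6 at day 4 (36.0 ± 40.0). The days did not overlap, and replicate 1 of day 4, which had the largest neural progenitor sum, lay far above the others. Its FPKM summed to 909369, beside 687431 and 585912 in the other WT day 4 libraries and 533773 to 577394 at WT day 0, and the part of this in its values was not tested. The change was 3.02 on the log2(FPKM + 1) scale (SE 0.65, limma adjusted p = 0.0069), an 8.10-fold difference. It was called without any one of the 6 replicates (2.15 to 3.60, adjusted p up to 0.0285). Smad5 rose from 6.62, 4.58 and 5.21 FPKM to 11.2, 9.71 and 9.76, without overlap, by 0.81 (SE 0.16, limma adjusted p = 0.0044).

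Bmpr1a read 20.03, 13.6 and 13 FPKM in WT at day 0 and 37.6, 22.0 and 19.8 at day 4, so that 1 day 4 value lay under the highest day 0 value. Its change of 0.70 (SE 0.23, limma adjusted p = 0.0464) was near the threshold and was lost in 4 of the 6 fits that left out a replicate (adjusted p up to 0.159). The estimate ran from 0.43 to 0.88 over the 6 fits. In WT, 3 of 10 genes were called, beside 25.8% of 12257 genes (15.5% higher at day 4, 10.3% lower), so their share was close to that of all genes. The days did not overlap for 2 of the 10, beside 42.2% of genes.

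Id1 and Id3 were variable between WT replicates. Id1 read 27.8, 8.25 and 9.97 FPKM at day 0 and 19.3, 9.16 and 7.89 at day 4, and Id3 read 31.0, 3.98 and 5.25 and then 19.5, 7.18 and 15.5. On both days replicate 1 was the highest for both genes, and the days overlapped. Bmp4 spread more widely still at WT day 0, with 15, 1.25 and 0.923 FPKM. Id4 read 1.86, 1.12 and 3.49 FPKM at day 0 and 1.72, 3.26 and 0.414 at day 4. None of these 4 genes was called in WT (limma adjusted p between 0.624 and 0.882). Smad1 (7.87, 7.34 and 6.06 FPKM, then 9.67, 10.4 and 7.80), Bmpr2 and Bmp7 overlapped between the days and were not called either (limma adjusted p = 0.134, 0.222 and 0.635).

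In Fyn KO cells, 1 of 10 genes was called between the days, beside 19.3% of 12257 genes (11.8% higher at day 4, 7.56% lower). Smad5 rose from 5.80, 5.47 and 4.51 FPKM to 8.16, 7.63 and 7.94 (5.26 ± 0.669 to 7.91 ± 0.265, SD, n = 3), by 0.51 (SE 0.16, limma adjusted p = 0.0411), and was lost in each of the 6 fits that left out a replicate (adjusted p up to 0.105). The days did not overlap for 3 of 10 genes (38.7% of all genes). These were Smad5, Bmpr1a (14.7, 11.1 and 13.5 FPKM, then 20.1, 17.7 and 21.9) and Id1.

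Id1 in Fyn KO was at 6.35, 4.75 and 72.5 FPKM at day 0 and at 3.61, 3.54 and 3.41 at day 4. The 3 day 4 values lay close together, while replicate 3 of day 0 was the highest Id1 value in E14. The change was -1.69 (SE 0.79, limma adjusted p = 0.151) and was not called, and it was -0.52 without that replicate (adjusted p = 0.426). That replicate also had the largest epiblast marker sum of the day 0 libraries, 64.9 FPKM beside 25.6 or less in the others, and it had the lowest Bmp7 (0.748 FPKM beside 9.11 and 10.8) and Id4 (0.581 beside 4.36 and 6.06) of its group. Without it, Bmp7 (-1.79, limma adjusted p = 0.0126) and Id4 (-1.70, adjusted p = 0.0319) were called lower at day 4 in Fyn KO. Id2 read 1.21, 3.97 and 2.77 FPKM and then 2.73, 1.59 and 7.21, with overlap between the days. Bmp4 was at 11.9, 2.87 and 12.7 FPKM and then 1.10, 2.81 and 3.03 (-1.47, SE 0.73, limma adjusted p = 0.179), and Id3 at 12.2, 3.56 and 3.80 and then 20.6, 8.99 and 15.8 (1.22, SE 0.66, adjusted p = 0.215), so both overlapped.

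Between Fyn KO and WT cells of the same day, none of the 10 genes passed the limma test. At day 0, 0 of 10 were called, beside 0.171% of genes, and 0 had an unadjusted p below 0.05, beside 14.6% of genes, and no gene of the 10 had groups that did not overlap (21.4% of all genes had). At day 4, 0 of 10 were called, beside 0.0734% of genes, and 3 had an unadjusted p below 0.05, beside 12.1% of genes. Id2 was lower in Fyn KO, at 2.73, 1.59 and 7.21 FPKM against 82.1, 10.2 and 15.6, a difference of -2.53 (SE 0.65, limma adjusted p = 0.156) that was -1.66 without WT day 4 replicate 1 (adjusted p = 0.276). Smad1 differed by -0.54 (SE 0.16, limma adjusted p = 0.212), with 6.01, 5.47 and 6.75 FPKM in Fyn KO and 9.67, 10.4 and 7.80 in WT. Bmpr2 differed by -0.56 (SE 0.20, limma adjusted p = 0.299), with 3.16, 3.17 and 4.20 FPKM against 5.86, 6.73 and 4.41.

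At day 4, 5 of the 10 had Fyn KO values below every WT value, namely Id1, Id2, Smad1, Smad5 and Bmpr2, where 9.99% of all genes did and 16.5% were without overlap in either direction. The smallest two-sided p that an exact permutation test can give for 3 against 3 is 0.1, so non-overlap alone cannot pass 0.05. The 5 genes come from the same 6 libraries, in which the neural progenitor sums given above were 23.3 to 182 FPKM in WT and 10.1 to 31.2 in Fyn KO. Endoderm markers summed to 3.17, 22.7 and 32.7 FPKM in WT and 1.26, 0.720 and 6.40 in Fyn KO on that day, and the part of either marker difference was not tested. The interaction, which compares the change over days between genotypes, gave 0 of 10 called (0% of genes) and 1 with an unadjusted p below 0.05 (4.38% of genes), Id2 (-2.71, SE 0.92, limma adjusted p = 0.997). So the rise of Id2 in WT and its absence from the calls in Fyn KO are not shown to differ.

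**Figure D5:**
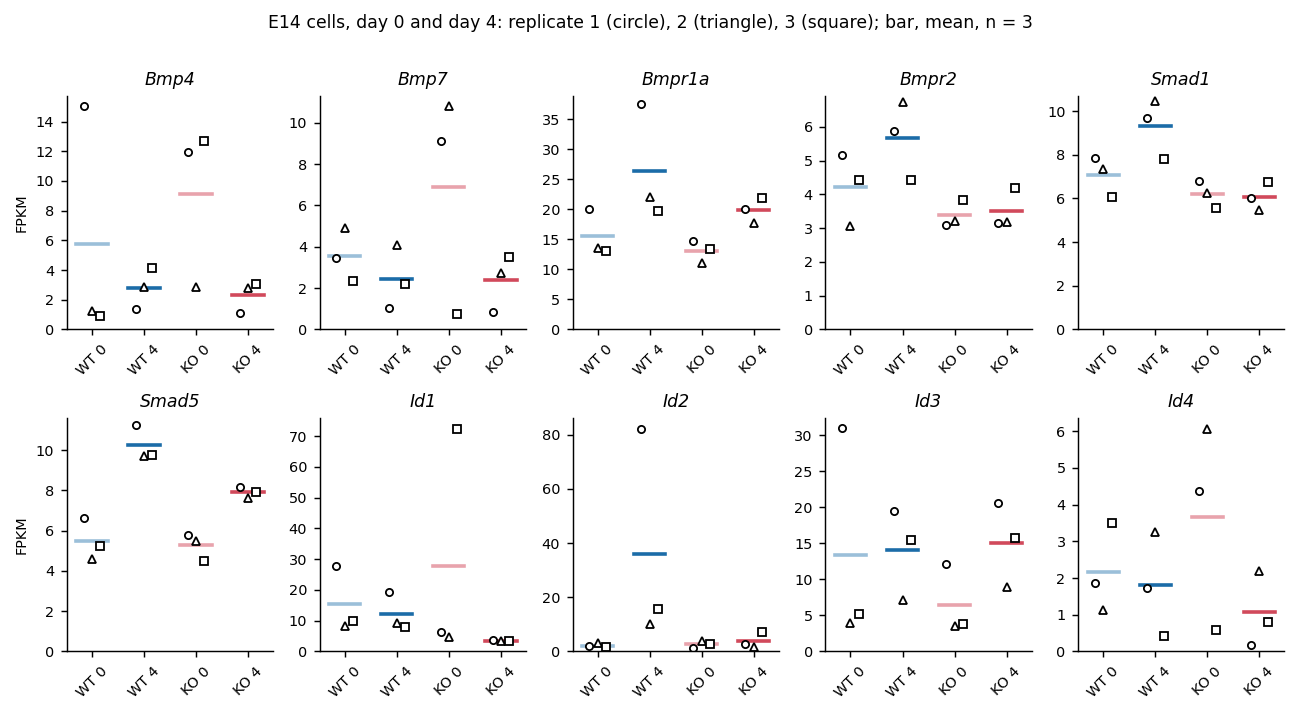
FPKM of the 10 genes in E14 WT and Fyn KO cells at day 0 and day 4 (vertical axes, linear, from 0), with replicates 1, 2 and 3 as circle, triangle and square and the mean of 3 as a bar. WT day 4 replicate 1 had 82.1 FPKM of Id2 and Fyn KO day 0 replicate 3 had 72.5 FPKM of Id1, and Smad5 was higher at day 4 in both genotypes.

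Other genes of the pathway were read from fixed lists. In the SFEB fit 35.1% of all genes rose and 27.1% fell, and in the adherent fit 35.2% and 23.4%. Among receptors and co-receptors, 6 of 8 tested rose and 2 fell over SFEB differentiation, with a median slope of 0.93 beside 0.05 for all genes. Rgma, a BMP co-receptor that is also an axon guidance protein, went from 3.10 to 66.4 FPKM in the first series (slope 3.10, SE 0.34), and Eng, a co-receptor best known from endothelium, went from 17.4 to 0.552 (-1.72, SE 0.18). In the adherent course 6 of 7 rose and 1 fell, with Rgma from 0.947 to 76.4 FPKM.

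The regulators of Smad signalling were mixed in SFEB, where 2 of 8 rose and 4 fell (median -0.22), or 2 and 2 without 216 h. In the adherent course 3 of 8 rose and 1 fell. Smad7, an inhibitory Smad, went from 18.3 to 2.12 FPKM in the first SFEB series (slope over both SFEB series -1.40, SE 0.16), against the direction of Smad1 and Smad5. In E14, Smad7 fell in both genotypes, by 2.56 in WT (SE 0.35) and by 2.35 in Fyn KO, while Skil, a Smad corepressor, rose by 1.89 (SE 0.38) in WT and by 1.96 in Fyn KO. Of the secreted antagonists, 5 of 11 rose and 2 fell in SFEB, shares near those of all genes, the latter being Grem1 (-1.85, SE 0.31) and Nbl1 (-1.19, SE 0.32). In the adherent course 6 of 8 antagonists rose and 0 fell (5 and 1 without 216 h), among them Fst (1.93, SE 0.36), which binds activin as well as BMPs.

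The E proteins that Id proteins pair with rose, all 3 in both population courses. Tcf12 went from 10.4 to 96.7 FPKM in the first SFEB series (slope 1.79, SE 0.14) and had a slope of 1.81 in the adherent course, and Tcf4 rose by 0.59 and 0.79 in the same fits. Gdf3, a ligand of the same superfamily and a marker of pluripotent cells, went from 37.6 to 3.04 FPKM in the first series and from 90.6 to 5.19 in the adherent course, and was called in the single cells too (-2.13, SE 0.50, limma adjusted p = 0.0195). Of these lists, no other gene was called there, but Rgma (0.64, limma adjusted p = 0.0353) and Twsg1 (1.62, adjusted p = 0.0495) were without cell 16 of 216 h. Of the other BMP targets, 2 of 5 rose in SFEB, Gata2 and Gata3. Both rested on the 216 h library of the parallel series (17.3 and 15.9 FPKM), since they went from 1.77 to 1.08 and from 1.77 to 0.885 FPKM in the first series and neither was called without 216 h. Of the targets tested, 2 of 2 rose in the adherent course, Atoh8 and Msx2. In WT E14 cells 2 of 3 targets fell by day 4, as did 10.3% of all genes, Tfap2a (-2.31, SE 0.37) and Gata2 (-2.06, SE 0.28). With the replicate number added to the fit, 3 of 3 fell, as did 11.6% of all genes. No gene of any list was called between genotypes on either day.

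The 10 genes had a median slope of 0.71 in SFEB beside 0.05 over all genes and 0.75 beside 0.09 in the adherent course. In the single-cell means the median of 9 was 0.54 beside 0.00, and it was -0.046 without 216 h. In E14 WT their median change was 0.35 beside 0.08, and leaving out 1 library moved it to between 0.088 (without WT day 0 replicate 2) and 0.64 (without WT day 0 replicate 1). In Fyn KO it was 0.01 beside 0.05, and between -0.12 (without day 4 replicate 3) and 0.064 (without day 4 replicate 2).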

How the data were processed

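RNA-seq was run on R1 mESC populations and single cells and on E14 cells. The labels name TopHat2 2.0.8b, Cufflinks 2.1.1 and the builds mm9 (R1) and mm10 (E14), and the study's methods name earlier versions of both tools. The authors deposited FPKM values for the adherent and E14 samples. For the SFEB populations the authors deposited FPKM after ComBat batch adjustment, in which 0.42% of values lie below 0 and were set to 0 here. For the cells the authors deposited log10(RPKM + 1) values after quantile normalization, so that levels between tables are not on 1 scale. No sample column was left unused.

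Values were taken as log2(FPKM + 1), or as log2 for the cells, and tested with limma 3.58.1 in R 4.3.3 with a variance trend and Benjamini-Hochberg adjustment over all genes, calling an adjusted p below 0.05. All 4 E14 groups entered 1 fit of genes with at least 1 FPKM in 3 or more libraries. Time courses were fitted as a line in hours for genes with at least 0.5 FPKM in 8 or more samples, with a series term in SFEB, and the cells on time point means. The code was tested on simulated data. Tables and figures were made in Python 3.11.15 (matplotlib 3.10.9, scipy 1.17.1, pandas 2.3.3, numpy 2.4.6).

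The named genes were the 10 members, the 3 genes most like each Id gene and, from each pathway list, up to 2 of those called with the largest change. Members and lists were chosen with earlier results of these data known, and the intervals compared between single libraries were chosen after their values were seen. The labels do not say whether E14 replicates were separate cultures, so p-values measure only the spread between these samples. E14 replicates of the same number deviated together in WT between days (r of the residuals 0.199 to 0.224) and between genotypes at day 4 (0.136 to 0.258), but not in Fyn KO between days (0.00112 to 0.0899) or between genotypes at day 0 (-0.115 to 0.339). The pseudocount, the filter, the scaling, the fit, the replicate block and each left-out replicate were varied.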

Additional observations from a re-analysis of the deposited data

How the results depend on the processing

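The counts of called genes among the 10 held within 1.5 times for most settings. For Fyn KO day 4 against day 0 the count was 1, and it was 0 without the filter, 0 in a fit of the 2 groups only, 3 with the replicate block and 0 to 2 without 1 replicate. With the block, Bmpr1a (limma adjusted p = 0.0466), Id3 (0.0352) and Smad5 were called, beside 22.7% of all genes, but the samples of this comparison share only a number. The block changed no other call among the 10. For Fyn itself it brought the day 0 difference between genotypes past the threshold (-1.29, limma adjusted p = 0.0436), where the samples also share only a number. For WT day 4 against day 0 the count was 2 to 3 without 1 replicate, and for both genotype comparisons and the interaction it was 0 in every such fit. In the single cells, 2 were called without cell 16 of 216 h. Id1 in the adherent monoculture turned from 0.42 to -0.046 per 100 h, end to end, with a spline (limma adjusted p = 0.0104). Bmpr1a in WT was not called without the filter (0.0682), with median ratio scaling (0.0668), without the variance trend (0.0540) or in a fit of the 2 groups only (0.103). Bmp7 in SFEB was not called with a pseudocount of 0.1 (0.0581), with scaling (0.0727) or without 216 h (0.195). Adherent Id3 was not called without 216 h (0.0785), and adherent Id1 was (0.74, 0.0246). Settings chosen after seeing the data left out 103 h of SFEB (7 of 10 called), 144 h of the adherent course (7), or 144 and 216 h (7). Over all genes, the calls between genotypes numbered 21 at day 0 (2 to 161 over the alternatives) and 9 at day 4 (0 to 24), those over days numbered 2370 in Fyn KO (1043 to 3064) and 3166 in WT (1843 at the lowest), the interaction gave 0 to 5, and the cells 313 (0 to 488). The cause of these changes was not tested. The depth of each library is not known, and values near 0 FPKM cannot be told from 0.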
